A study of Mus musculus with 9 samples.

Results

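The genes described here are 10 members of the Notch pathway, namely the receptors Notch1, Notch2 and Notch4, the ligands Dll1, Dll4, Jag1 and Jag2, the nuclear effector Rbpj and the target genes Hes1 and Dtx1. They were chosen by symbol, for the role of Notch in T-cell leukemia and in splenic dendritic cells (DCs), by a rule that used no values, although earlier results of these data were known when the members and the wider pathway list were chosen. Each symbol matched a single gene, which gives 10 of the 54532 genes listed for the series. Of the 10 genes, 9 passed the filter on low values and were tested, and Dll1 did not pass.

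RNA was sequenced in bulk from DCs sorted from mouse spleens, with 3 samples in each of 3 groups. N-mDCs were mature conventional DCs from the spleens of normal mice that received no leukemia cells. T-mDCs were mature conventional DCs from the spleens of mice with T-cell acute lymphoblastic leukemia (T-ALL), and T-DCs were immature CD11c+MHCIIlo DCs from leukemic spleens. Per the study's methods, the mice were young females of the C57BL/6J or C57B6.SJL strain, and the leukemia came from bone marrow c-kit+ cells infected with a retrovirus that carries the intracellular domain of Notch1 (ICN1) and GFP. GFP+ leukemia cells were then transplanted into mice that were not irradiated, so that both T-DCs and T-mDCs came from hosts that kept their own blood system and carried ICN1-driven leukemia cells. The DCs were enriched with CD11c beads and sorted, and T-DCs were taken from GFP-negative cells after other lineages were gated out, so surface MHCII and the absence of GFP were part of how that group was defined. The labels and methods do not say whether the 3 samples of a group came from separate animals, so the p-values measure only the spread between these samples, which may be technical.

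Notch receptors on one cell are switched on by Delta-like (Dll) or Jagged (Jag) ligands on a neighbouring cell. The bound receptor is cut first by the metalloprotease ADAM10 and then by gamma-secretase, and its intracellular domain travels to the nucleus, where it joins the DNA-binding protein RBPJ and turns on targets such as Hes1 and Dtx1. Notch1 commits progenitors to the T-cell lineage and is a driver of T-ALL when its intracellular domain is active on its own, while Notch2 acting through RBPJ is known to maintain a subset of splenic conventional DCs that carry ESAM.

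RNA values are given as FPKM, the fragments counted on a gene per kilobase of its length and scaled to the size of the library, so that levels of different genes can be set side by side. Reads counted on genes ran from 15360815 to 18440913 per sample, so that a single read over 1 kilobase stood for 0.0517 to 0.0659 FPKM. Differences are given as log2 fold changes of FPKM + 1 from a single limma fit over the 12746 tested genes and all 9 samples, with the standard error (SE), and a gene is called when its Benjamini-Hochberg adjusted p is under 0.05. Adding 1 makes the change of genes below a few FPKM look smaller than it is. Itgax, which encodes CD11c, was detected in all 9 samples (N-mDCs 158 to 230 FPKM, T-DCs 43.0 to 152 and T-mDCs 159 to 167). The summed level of 12 conventional DC markers, most of it from MHCII genes, was between 642 and 2379 FPKM in T-DCs and between 9248 and 20066 in the mature samples. T-DC samples 2 and 3 held 57937 and 41950 FPKM of 8 red cell genes against 603 in T-DC sample 1 and at most 5359 elsewhere. T-DC sample 1 stood apart from the other T-DC samples (Pearson r of 0.939 and 0.928 across genes, against at least 0.975 within the other groups). It held the most macrophage RNA of the 3, with 9 macrophage markers at 3237 FPKM in sum against 1194 and 756. The same markers summed to 1606, 3335 and 1920 FPKM in N-mDC samples 1 to 3 and to 1378, 472 and 472 in T-mDC samples. T-mDC samples 2 and 3 were closer to each other (chi-square of 1.85 per gene) than any other samples of a group (8.11 or more), which is still more than sampling noise, and were kept as separate samples.

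T-DCs expressed lower levels of 6 of the 9 tested Notch genes than N-mDCs, namely Dtx1, Jag2, Dll4, Jag1, Notch4 and Rbpj, and higher levels of none (0 also at an unadjusted p under 0.05, and 0 with limma voom). In the same comparison 16.4% of all tested genes were called, 10.3% as lower and 6.1% as higher. T-DCs also expressed lower levels of 5 of the 9 than T-mDCs (Dll4, Dtx1, Notch4, Jag2 and Rbpj), and higher levels of none (1 at an unadjusted p under 0.05, Hes1, and 0 with limma voom), where 14.2% of all tested genes were called, 8.79% as lower and 5.44% as higher. Both comparisons use the same T-DC samples. The median log2 fold change of the 9 genes was -1.48 in the comparison with N-mDCs and -1.39 in that with T-mDCs, while the medians of all tested genes were 0.05 and 0.07. Between T-mDCs and N-mDCs only Dll4 was called, as higher in T-mDCs, with 2.21% of all tested genes called, 0.69% as higher and 1.52% as lower. The samples of T-DCs did not overlap those of N-mDCs in 6 of the 9 genes (32.4% of all tested genes) or those of T-mDCs in 5 (34.9%), and the mature groups did not overlap in 3 (35%). An F-test over the 3 groups called Dll4, Dtx1, Jag2, Notch4 and Rbpj, 5 of the 9, where it called 18% of all tested genes. In bulk samples, fewer cells of a type and less RNA per cell cannot be told apart, and this holds for every difference given here.

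**Figure D1:**
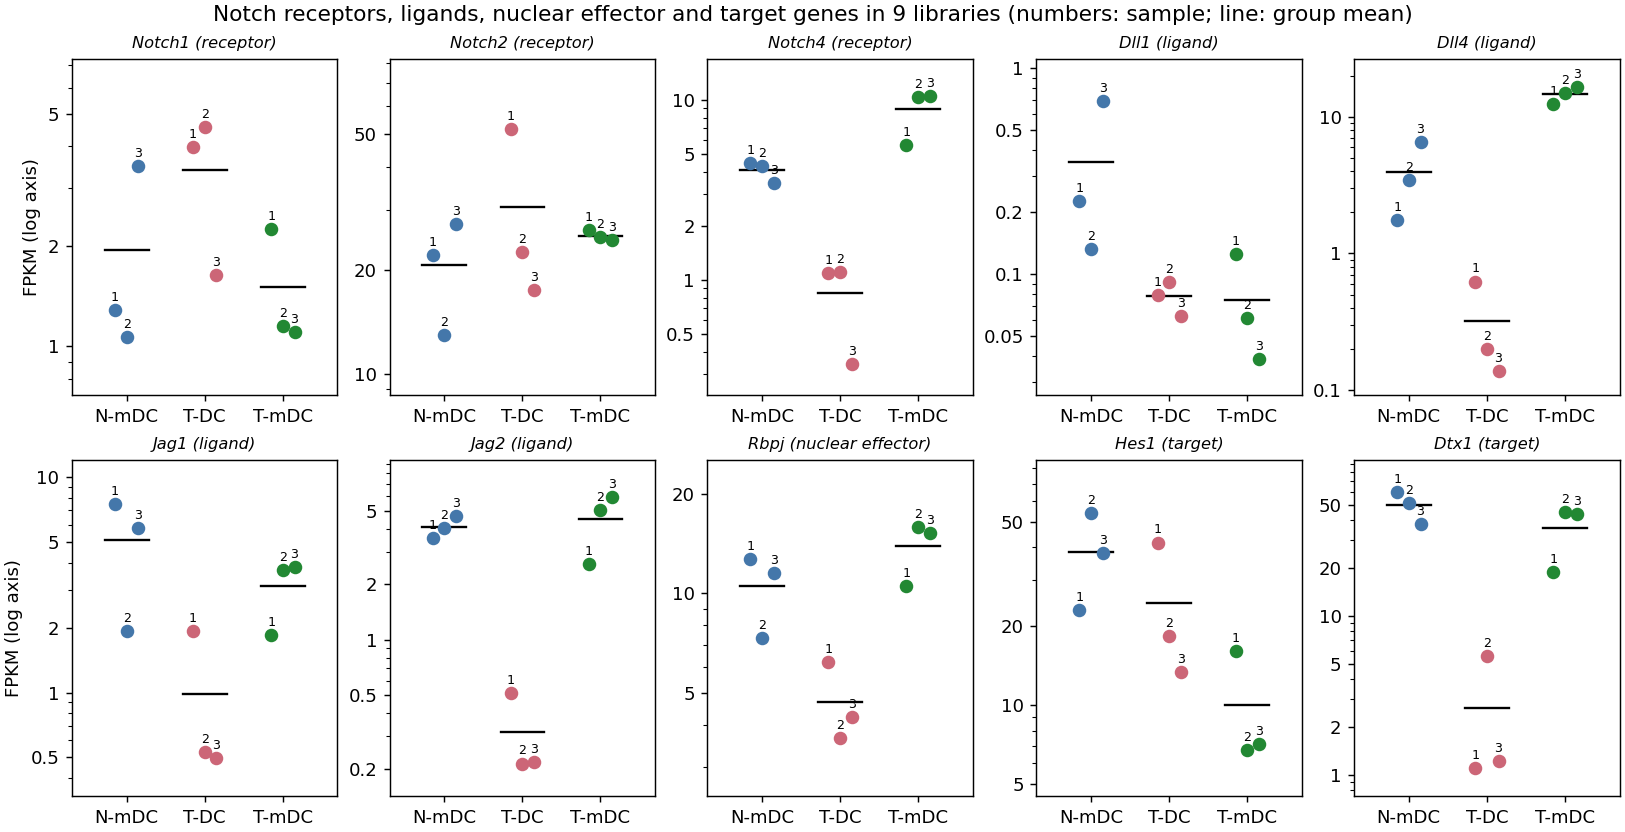
FPKM of each of the 10 Notch genes (vertical log axes, 1 panel per gene) in the 3 samples of each group, with the sample number over each point and a line at the group mean. The T-DC points lie below all others for Notch4, Dll4, Jag2, Rbpj and Dtx1, and the groups overlap for Notch1 and Notch2.

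The upstream windows of 3 genes are shown because the results turn on them: Dtx1 had the largest difference between T-DCs and N-mDCs, Dll4 the largest between T-DCs and T-mDCs, and Rbpj encodes the protein that reads the motif searched. The windows are the 250 bases before the RefSeq start (build GRCm38.p6), written 5′ to 3′ on the strand of the gene. The Dtx1 window is chr5:120711670-120711919 on the minus strand, the Dll4 window chr2:119325534-119325783 on the plus strand, and the Rbpj window chr5:53590096-53590345 on the plus strand, which lies within the span of the gene in the files. Capitals mark the letters TGGGAA, the core of the motif that RBPJ binds, read on either strand (TTCCCA where the match is on the other strand).
Dtx1: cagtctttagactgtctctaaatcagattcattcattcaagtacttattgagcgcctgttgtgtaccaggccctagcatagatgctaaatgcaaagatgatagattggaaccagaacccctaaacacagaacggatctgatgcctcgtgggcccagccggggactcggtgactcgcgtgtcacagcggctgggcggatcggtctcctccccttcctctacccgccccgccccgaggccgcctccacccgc
Dll4: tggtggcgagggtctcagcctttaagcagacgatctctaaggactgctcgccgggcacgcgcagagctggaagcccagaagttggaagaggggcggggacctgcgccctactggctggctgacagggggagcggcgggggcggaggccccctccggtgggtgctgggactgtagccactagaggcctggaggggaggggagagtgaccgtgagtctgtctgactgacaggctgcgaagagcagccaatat
Rbpj: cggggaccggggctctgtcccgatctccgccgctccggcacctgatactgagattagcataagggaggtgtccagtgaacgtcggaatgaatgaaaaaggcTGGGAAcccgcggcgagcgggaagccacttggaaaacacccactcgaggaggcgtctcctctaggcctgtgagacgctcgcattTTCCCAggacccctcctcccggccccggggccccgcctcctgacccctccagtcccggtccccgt
The longer motif GTGGGAA, which contains the core, was found on either strand in none of the windows of the 9 members matched in RefSeq (250 bases before to 50 after the start), and in 6.38% of the 32851 mouse promoters of the same length. The core TGGGAA was found in 25.6% of those promoters and, among the members, in Rbpj alone, where it lay at positions -149 and -65 relative to the start. Those letters are not in the Dtx1 and Dll4 windows, which says nothing of RBPJ binding elsewhere. Hes1 was not matched.

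Among the 3 member receptors, Notch2 had the highest level in every sample and Notch4 was the only one that differed between groups by the test. Notch3, which is not a member, was at 0.251 to 1.39 FPKM and did not pass the filter. Notch4 (ENSMUSG00000015468, chr17:34564268-34588503, plus strand, mm10) encodes a receptor best known from blood vessel endothelium. Notch4 was at 4.48, 4.28 and 3.47 FPKM in N-mDC samples 1 to 3, at 1.09, 1.10 and 0.343 in T-DC samples and at 5.64, 10.4 and 10.6 in T-mDC samples. Every T-DC sample lay below every N-mDC sample, and every T-mDC sample lay above every N-mDC sample. T-DCs expressed less Notch4 than N-mDCs (log2 fold change -1.48, SE 0.27, adjusted p = 0.00946, limma) and than T-mDCs (-2.41, SE 0.27, adjusted p = 0.00197). The higher level in T-mDCs than in N-mDCs was not called (log2 fold change 0.92, 95% interval 0.30 to 1.54, adjusted p = 0.135), although the groups did not overlap. With T-DC sample 1 as the only T-DC sample, which leaves out the samples rich in red cell RNA, the difference from N-mDCs was -1.27 with an adjusted p of 0.0811, on the assumption that the lone sample varies like the other groups. Notch4 made up 10.2 to 23.4% of the summed receptor FPKM of N-mDCs, 1.76 to 3.90% of that of T-DCs and 16.5 to 29.2% of that of T-mDCs.

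Because Notch4 is known from endothelium, the endothelial markers are given beside it. The 10 endothelial markers summed to between 23.7 and 28.8 FPKM in N-mDCs, between 37.2 and 111 in T-DCs and between 24.7 and 45.3 in T-mDCs, most of it Pecam1, which DCs and other leukocytes also express. Emcn was at 0 in every N-mDC and T-mDC sample, and Tek and Ptprb were at or below 0.0337 FPKM in all samples. Kdr ran in the same order of groups as Notch4 and Dll4, with 1.48, 1.06 and 2.54 FPKM in N-mDCs, 0.538, 0.257 and 0.503 in T-DCs and 4.94, 7.38 and 8.05 in T-mDCs. Cdh5 was between 2.34 and 5.40 FPKM in N-mDCs, between 1.39 and 4.62 in T-DCs and between 0.271 and 2.96 in T-mDCs. Egfl7 was highest in T-DCs, with 0.0624, 1.21 and 2.50 FPKM in samples 1 to 3, against at most 0.169 in the mature samples. Of the 3 endothelial markers tested, 1 was lower and 1 higher in T-DCs (against N-mDCs), 1 was lower in T-DCs (against T-mDCs) and 1 was higher in T-mDCs (against N-mDCs). The shares of all tested genes called in either direction in these comparisons were 16.4, 14.2 and 2.21%. The part of endothelial RNA in the levels of Notch4 and Dll4 was not tested.

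Notch2 (ENSMUSG00000027878, chr3:98013527-98150361, plus strand) is the receptor that ESAM-high splenic DCs require. Its level was 22.1, 13.0 and 27.2 FPKM in N-mDCs, 51.5, 22.7 and 17.5 in T-DCs and 26.3, 24.9 and 24.5 in T-mDCs. The T-DC range took in every mature sample except the lowest N-mDC sample (13.0 FPKM), and T-DC sample 1 was the highest of all 9. No difference was called for Notch2 (T-DCs against N-mDCs 0.45, 95% interval -0.45 to 1.34, adjusted p = 0.450; T-DCs against T-mDCs 0.12, -0.78 to 1.01, adjusted p = 0.863). Without T-DC sample 1 the difference from T-mDCs was -0.32. It was also negative with TPM, quantile normalization, array weights and limma voom, so its direction depended on that sample and on the processing. Notch2 supplied 67.7 to 91.0% of the summed FPKM of Notch1, Notch2 and Notch4 across the 9 samples. The 5 genes listed for ESAM-high DCs were Esam, Clec4a4, Cd4, Clec12a and Cd209a. They summed to between 206 and 270 FPKM in N-mDCs, between 19.8 and 59.5 in T-DCs and between 90.6 and 130 in T-mDCs. By the same test T-DCs were below N-mDCs in 4 of the 5, where 10.3% of all tested genes were lower. Clec12a overlapped, with 15.7 to 31.8 FPKM in N-mDCs and 10.1 to 30.0 in T-DCs. The listed genes may also be expressed by other cells, so neither the sum nor the count measures that subset.

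Notch1 (ENSMUSG00000026923, chr2:26457903-26516663, minus strand) is the receptor whose intracellular domain drove the leukemia in this model, and reads from the ICN1 transgene and from the gene itself cannot be told apart in a value per gene. Notch1 was at 1.29, 1.07 and 3.49 FPKM in N-mDCs, 3.97, 4.57 and 1.64 in T-DCs and 2.25, 1.15 and 1.11 in T-mDCs. T-DC samples 1 and 2 were the highest of the 9, T-DC sample 3 lay among the mature samples, and the groups overlapped. No difference was called (T-DCs against N-mDCs 0.60, 95% interval -0.27 to 1.46, adjusted p = 0.292; T-DCs against T-mDCs 0.77, -0.10 to 1.64, adjusted p = 0.215). T-DC sample 2, the highest in Notch1, was also the highest of the 9 in the immature T-cell genes Ptcra (1.86 FPKM) and Rag1 (0.518). Its Cd3e level of 1.28 FPKM was below that of N-mDC sample 2 (1.52), which had the lowest Notch1 of all (1.07). Of the other T-lineage markers, Cd3d, Cd3g, Thy1, Bcl11b, Lef1 and Dntt were also highest in T-DC sample 2. Cd247, Cd8a, Cd8b1, Lck, Cd5 and Tcf7 were higher in at least 1 mature sample. In T-DC sample 1, the next in Notch1, Ptcra was at 0.392 FPKM, Rag1 at 0.0338 and Cd3e at 0.0684. The 15 T-lineage markers summed to between 121 and 129 FPKM in N-mDCs, between 16.5 and 72.3 in T-DCs and between 102 and 219 in T-mDCs. In T-mDC samples 2 and 3 most of it was Tcf7 (116 and 114 FPKM) and Cd8a (91.9 and 92.9), which a subset of DCs also expresses. Cd3d, Cd3e and Cd3g were at most 0.798, 0.317 and 0.443 FPKM in T-mDCs and reached 4.38, 1.52 and 2.46 in N-mDCs. The part of leukemia cell RNA in the Notch1 level was not tested.

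The summed ligand level was lower in every T-DC sample than in every mature sample. Summed over Dll1, Dll4, Jag1 and Jag2, ligand FPKM was 13.1, 9.58 and 17.8 in N-mDCs, 3.14, 1.04 and 0.914 in T-DCs and 17.0, 23.9 and 26.4 in T-mDCs. The leading ligand also differed. In N-mDC samples 1, 2 and 3 it was Jag1, Jag2 and Dll4 respectively, in all 3 T-DC samples it was Jag1 with 51.2 to 61.3% of the sum, and in all 3 T-mDC samples it was Dll4 with 62.9 to 73.2%. The shares in T-DC samples 2 and 3 rested on few reads (Jag1 48 and 44, Jag2 23 and 23, Dll4 12 and 8).

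**Figure D2:**
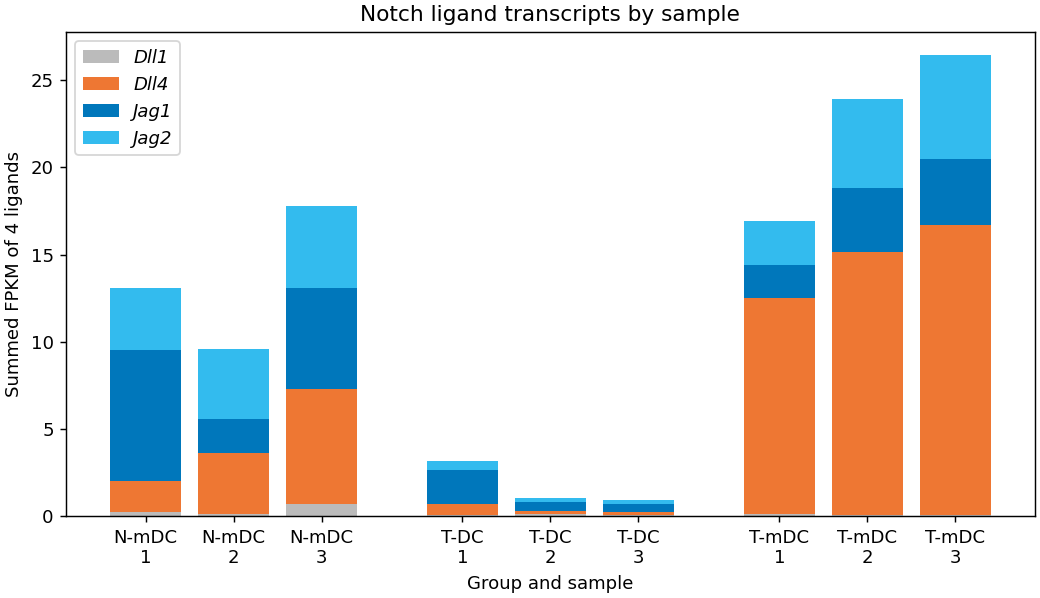
Summed FPKM of the 4 Notch ligands (vertical axis from 0) in each of the 9 samples, stacked by ligand. T-DC samples reach 0.914 to 3.14 FPKM, below the 9.58 FPKM of the lowest mature sample, and Dll4 is the largest share in every T-mDC sample.

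Dll4 (ENSMUSG00000027314, chr2:119325784-119335962, plus strand) is the ligand that the thymus uses to engage Notch1 on T-cell progenitors. Dll4 was at 1.76, 3.48 and 6.59 FPKM in N-mDCs, 0.623, 0.201 and 0.137 in T-DCs and 12.4, 15.1 and 16.6 in T-mDCs. The 3 groups formed separate ranges, with T-DCs the lowest and T-mDCs the highest. T-DCs expressed less Dll4 than N-mDCs (log2 fold change -1.80, SE 0.34, adjusted p = 0.0107) and than T-mDCs (-3.58, SE 0.34, adjusted p = 0.00140). The level in T-DC sample 3 rested on 8 reads, against 1179 in T-mDC sample 3. The difference from N-mDCs was -1.49 with an adjusted p of 0.131 when T-DC sample 1 was the only T-DC sample, and -3.73 (adjusted p = 0.0123) when the recovered reads were tested with limma voom.

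T-mDCs expressed a higher level of Dll4 than N-mDCs (log2 fold change 1.78, SE 0.34, 95% interval 1.00 to 2.56, adjusted p = 0.0399). This was the single Notch difference called between mature DCs of leukemic and normal spleens, and it passed the threshold under 8 of 22 alternatives, with adjusted p-values from 0.00200 to 0.170. The fold stayed between 1.42 and 2.17 on the log2 scale under all of them. Leaving out N-mDC sample 1 (adjusted p = 0.0609), N-mDC sample 2 (0.142), T-DC sample 2 (0.0660), T-DC sample 3 (0.0522) or any T-mDC sample (0.0550, 0.159 and 0.170 for samples 1 to 3) ended the call. Gm14207, a processed transcript on the opposite strand at chr2:119321187-119326194 that overlaps the start of Dll4, ran from 0.125 FPKM in T-DC sample 3 to 9.43 in T-mDC sample 2. The source used here does not say whether strand was used in counting, so reads over the shared bases cannot be told apart.

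Jag2 (ENSMUSG00000002799, chr12:112907819-112929776, minus strand), a Jagged ligand, separated T-DCs from both mature groups by about the same amount. Jag2 was at 3.56, 4.04 and 4.71 FPKM in N-mDCs, 0.513, 0.213 and 0.217 in T-DCs and 2.58, 5.08 and 5.94 in T-mDCs. The lowest mature sample, T-mDC sample 1, was above the highest T-DC sample, and the mature groups overlapped. T-DCs expressed less Jag2 than N-mDCs (log2 fold change -1.96, SE 0.26, adjusted p = 0.00243) and than T-mDCs (-2.03, SE 0.26, adjusted p = 0.00256), and both calls held under all 21 alternatives in which Jag2 was tested. With the recovered reads and limma voom, these differences were -3.84 and -4.00. Between T-mDCs and N-mDCs the difference was 0.07 (95% interval -0.52 to 0.65, adjusted p = 0.923), and its sign turned under 4 alternatives.

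Jag1 (ENSMUSG00000027276, chr2:137081456-137116644, minus strand), the other Jagged ligand, varied more within groups. Jag1 was at 7.53, 1.93 and 5.81 FPKM in N-mDCs, 1.93, 0.531 and 0.497 in T-DCs and 1.85, 3.69 and 3.82 in T-mDCs. N-mDC sample 2 and T-DC sample 1 had nearly the same level, and T-mDC sample 1 lay below that T-DC sample. T-DCs expressed less Jag1 than N-mDCs (log2 fold change -1.56, SE 0.44, adjusted p = 0.0445), and the call held under 8 of 21 alternatives. It was lost without N-mDC sample 1 (adjusted p = 0.140), N-mDC sample 3 (0.133), T-DC sample 2 (0.136), T-DC sample 3 (0.130), T-mDC sample 2 (0.0702) or T-mDC sample 3 (0.0691). The difference from T-mDCs was not called (-1.09, 95% interval -2.09 to -0.08, adjusted p = 0.138) except without T-DC sample 1 (-1.40, adjusted p = 0.0400) and with array weights.

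Dll1 (ENSMUSG00000014773, chr17:15367354-15376872, minus strand) is the ligand that splenic stroma presents to Notch2 on DCs and marginal zone B cells. Dll1 was at 0.227, 0.132 and 0.692 FPKM in N-mDCs, 0.0794, 0.0918 and 0.0624 in T-DCs and 0.126, 0.0613 and 0.0387 in T-mDCs. These values rested on 3 to 53 reads per sample, and Dll1 was the lowest of the 10 genes in every group, so no test was made. Each N-mDC sample was above each sample from leukemic spleens, at levels where a difference of a few reads decides the order.

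Rbpj (ENSMUSG00000039191, chr5:53466152-53657362, plus strand) encodes the DNA-binding partner that all 3 member receptors share. Rbpj was at 12.7, 7.33 and 11.5 FPKM in N-mDCs, 6.21, 3.67 and 4.25 in T-DCs and 10.6, 15.8 and 15.2 in T-mDCs. The T-DC samples were below all mature samples, with T-DC sample 1 close to N-mDC sample 2. T-DCs expressed less Rbpj than T-mDCs (log2 fold change -1.39, SE 0.26, adjusted p = 0.0117), and the adjusted p was 0.0636 without T-mDC sample 2 and 0.0637 without T-mDC sample 3. The difference from N-mDCs was smaller (-1.01, SE 0.26, adjusted p = 0.0348) and was called under 10 of 22 alternatives. It was lost without N-mDC sample 1 (adjusted p = 0.118), N-mDC sample 3 (0.107), T-DC sample 2 (0.118), T-DC sample 3 (0.0952), T-mDC sample 2 (0.0576) or T-mDC sample 3 (0.0602). With T-DC sample 1 alone the differences were -0.64 from N-mDCs (adjusted p = 0.295) and -1.02 from T-mDCs (adjusted p = 0.116). The difference between T-mDCs and N-mDCs was not called (0.38, 95% interval -0.22 to 0.98, adjusted p = 0.508).

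The target genes Dtx1 and Hes1 did not follow each other. Dtx1 (ENSMUSG00000029603, chr5:120680202-120711927, minus strand) encodes Deltex-1, a ubiquitin ligase that binds Notch receptors. Dtx1 was at 60.0, 51.3 and 37.8 FPKM in N-mDCs, 1.10, 5.58 and 1.21 in T-DCs and 18.7, 45.0 and 43.8 in T-mDCs. It was the highest of the 10 genes in N-mDCs and T-mDCs by the group mean (49.7 ± 11.2 and 35.8 ± 14.8 FPKM, SD, n = 3) and was at 2.63 ± 2.56 FPKM in T-DCs. T-DCs expressed 15.9-fold less Dtx1 than N-mDCs on the FPKM + 1 scale (log2 fold change -3.99, SE 0.49, adjusted p = 0.00190) and also less than T-mDCs (-3.46, SE 0.49, adjusted p = 0.00380). Both calls held under all 22 alternatives, with T-DC sample 1 as the only T-DC sample included. T-mDCs and N-mDCs overlapped in Dtx1 (-0.54, 95% interval -1.66 to 0.58, adjusted p = 0.628).

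Hes1 (ENSMUSG00000022528, chr16:30064384-30067796, plus strand) encodes a transcriptional repressor that answers to Notch and to other signals. Hes1 was at 23.0, 54.0 and 38.1 FPKM in N-mDCs, 41.7, 18.4 and 13.4 in T-DCs and 16.1, 6.76 and 7.13 in T-mDCs. T-DCs overlapped both other groups, and T-DC sample 1 lay among the N-mDCs. No Hes1 difference was called (T-DCs against N-mDCs -0.70, 95% interval -1.81 to 0.40, adjusted p = 0.330; T-DCs against T-mDCs 1.16, 0.05 to 2.26, adjusted p = 0.152). Every T-mDC sample was below every N-mDC sample, and this difference missed the threshold (-1.86, 95% interval -2.97 to -0.75, adjusted p = 0.10). It was called under 4 of 22 alternatives, namely without T-DC sample 1 (adjusted p = 0.0301), with only the groups compared (0.0490), with T-DC sample 1 as the only T-DC sample (0.0489) and with array weights (0.00190). The ratio of Dtx1 to Hes1 FPKM was 2.60, 0.951 and 0.994 in N-mDCs, 0.0264, 0.303 and 0.0906 in T-DCs and 1.16, 6.66 and 6.14 in T-mDCs. T-DCs were thus the only group in which Hes1 exceeded Dtx1 in every sample. The macrophage marker sums were 1606, 3335 and 1920 FPKM in N-mDCs, 3237, 1194 and 756 in T-DCs and 1378, 472 and 472 in T-mDCs. The part of macrophage RNA in the Hes1 level and in this ratio was not tested.

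**Figure D3:**
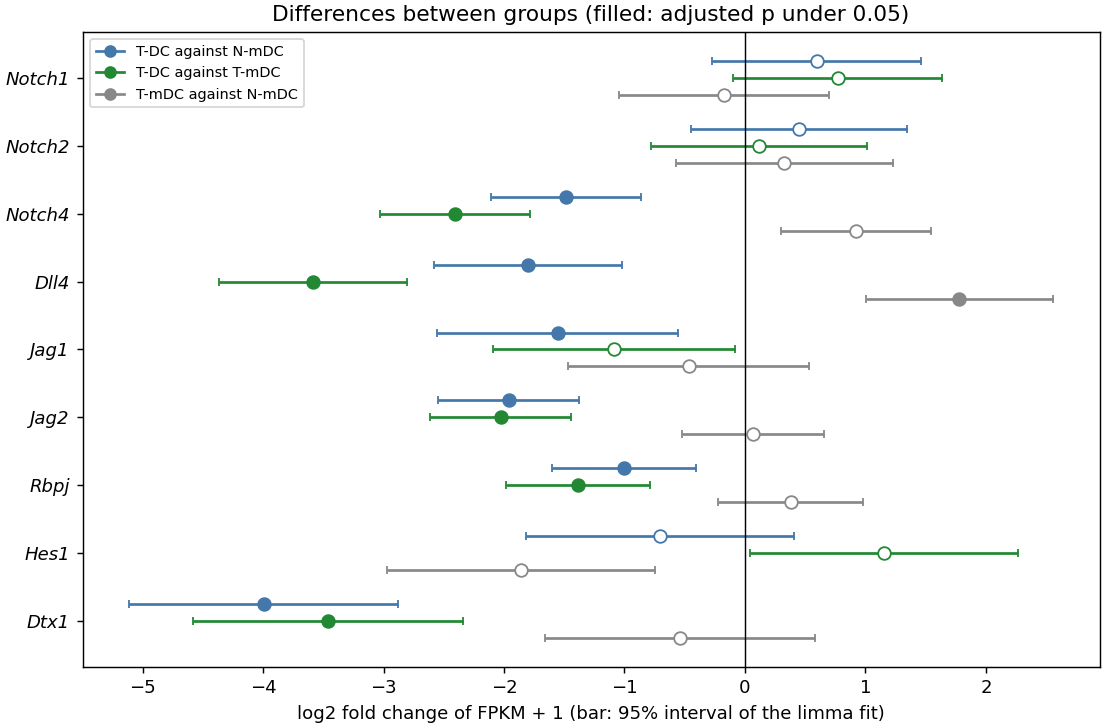
Log2 fold changes of FPKM + 1 for the 9 tested Notch genes (horizontal axis) in the 3 comparisons, with 95% intervals of the limma fit as bars and filled points where the adjusted p was under 0.05. T-DCs were called lower than both mature groups for Notch4, Dll4, Jag2, Rbpj and Dtx1, and the single filled point between T-mDCs and N-mDCs is Dll4 at 1.78.

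Dtx1 led the order of levels in both mature groups but not in T-DCs. By mean FPKM, N-mDCs had Dtx1, Hes1 and Notch2 at the top with overlapping samples (49.7, 38.4 and 20.8), then a gap that no sample bridged to Rbpj (10.5). T-DCs had Notch2 and Hes1 at the top (30.6 and 24.5), separated from Rbpj (4.71), Notch1 (3.40) and Dtx1 (2.63), which overlapped one another in that order. T-mDCs had Dtx1 and Notch2 at the top (35.8 and 25.2), separated from Dll4 (14.7), Rbpj (13.9) and Hes1, which also overlapped as neighbours.

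Over the 9 samples, the members with the most alike log2 values were Dtx1 and Jag2 (Pearson r = 0.930), followed by Dll4 and Notch4 (0.927). Hes1 and Dtx1 had an r of -0.105. All these values come from the same 9 libraries in 3 groups, so they describe how the groups are ordered and were not tested. Among all tested genes, the 3 most alike Dtx1 were Srebf2 (r = 0.991), Siglecg (0.987) and Tnfrsf18 (0.986), and those most alike Dll4 were Gm14207 (0.987), Il6 (0.968) and Kdr (0.966). The leading genes were Shb for Jag2 (0.991), Trip10 for Notch4 (0.990), Aebp2 for Rbpj (0.988), Gbp9 for Jag1 (0.984), Vnn3 for Hes1 (0.995), Naip6 for Notch2 (0.992) and Mylip for Notch1 (0.952).

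The other genes of the pathway were described from a list of 59 genes grouped by role, of which 42 passed the filter. T-DCs differed from N-mDCs in 9 of the 42 (21.4%, beside 16.4% of all tested genes), with 5 lower and 4 higher, and from T-mDCs in 7 (16.7%, beside 14.2%), with 4 lower and 3 higher. The median log2 fold change of the list was 0.07 in the first of these comparisons and 0.11 in the second. Without T-DC sample 1 the counts were 16 and 14 of the 42, where 39.5% and 35.1% of all tested genes were called. T-mDCs and N-mDCs differed in 2 of the 42 (4.76%, beside 2.21%), both lower in T-mDCs.

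Of the 4 tested ubiquitin ligases listed as acting on the ligands, T-DCs were lower than N-mDCs in 2 and than T-mDCs in 1. T-mDCs were lower than N-mDCs in 1, and 0 were called higher. The shares of all tested genes called lower were 10.3, 8.79 and 1.52%. Mib1 was not called in these comparisons (0.17, -0.06 and 0.23, adjusted p = 0.668, 0.904 and 0.701, limma). Neurl3, a neuralized-type ubiquitin ligase, was at 204, 155 and 156 FPKM in N-mDCs, 89.1, 33.8 and 30.4 in T-DCs and 42.8, 35.9 and 34.3 in T-mDCs. It was lower in T-DCs (log2 fold change -1.89, adjusted p = 0.0125) and in T-mDCs (-2.15, adjusted p = 0.0267) than in N-mDCs, and the samples from leukemic spleens did not reach the N-mDC level. Between T-DCs and T-mDCs no Neurl3 difference was called (0.26, adjusted p = 0.669). Mib2, a mind bomb ligase that helps ligands to be taken up, was lower in T-DCs than its N-mDC level (-0.93, adjusted p = 0.0235), and Neurl1b was lower in T-DCs than in T-mDCs (-1.49, adjusted p = 0.00753). Among enzymes that add sugars to the receptors, Pofut1 was higher in T-DCs than in N-mDCs (0.73, adjusted p = 0.0133) and T-mDCs (0.55, adjusted p = 0.0400), while Poglut1 was lower in T-DCs than in T-mDCs (-1.80, adjusted p = 0.00495). The Neurl1b and Poglut1 calls were lost only with T-DC sample 1 as the only T-DC sample, under 1 of 21 and 1 of 22 alternatives. The other calls were less stable. Neurl3 against N-mDCs held under 20 of 22 alternatives in T-DCs (adjusted p = 0.0514 without N-mDC sample 1) and 14 in T-mDCs, where leaving out any N-mDC sample or T-mDC sample 2 or 3 gave 0.0718 to 0.126. Mib2 held under 13, and leaving out T-DC sample 2 or 3 or any N-mDC sample gave 0.0561 to 0.0856. Pofut1 held under 18 against N-mDCs (adjusted p = 0.0523 without T-DC sample 2) and under 6 against T-mDCs, where it was kept when T-DC sample 1 or N-mDC sample 2 was left out and leaving out any other sample gave 0.0618 to 0.165.

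Of the proteases, Adam10, which makes the first cut in bound receptors, was the pathway gene with the largest rise. Adam10 was at 21.4, 13.0 and 24.0 FPKM in N-mDCs, 41.3, 92.9 and 72.7 in T-DCs and 26.6, 22.8 and 21.9 in T-mDCs. All T-DC samples were above all mature samples, and T-DC sample 1, the one poorest in red cell RNA, was the lowest of the 3. The difference was 1.74 (SE 0.32, adjusted p = 0.00987) from N-mDCs and 1.43 (SE 0.32, adjusted p = 0.0233) from T-mDCs. The first was called under 21 of 22 alternatives and was 1.09 (adjusted p = 0.105) with T-DC sample 1 as the only T-DC sample. The second was called under 13, and was lost without T-DC sample 2 (adjusted p = 0.0798), T-DC sample 3 (0.0690), T-mDC sample 2 (0.0969) or T-mDC sample 3 (0.0999). Of the 7 gamma-secretase subunits, which carry out the second cut, only Aph1c was called, with T-DCs below N-mDCs (-1.59, adjusted p = 0.0165, limma) and below T-mDCs (-1.23, adjusted p = 0.0436). This share of 14.3% lay near the 16.4% and 14.2% of all tested genes called in the same comparisons. These Aph1c calls held under 18 and 10 of 22 alternatives. The first was lost without N-mDC sample 1, T-DC sample 2 or T-DC sample 3 (0.0515 to 0.0636) and the second without any N-mDC sample, T-DC sample 2 or 3 or T-mDC sample 2 or 3 (0.0635 to 0.160).

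In the nucleus, none of the 6 coactivators was called by limma in any comparison, and 2, 1 and 0 of them had an unadjusted p under 0.05 in the comparisons of T-DCs with N-mDCs, of T-DCs with T-mDCs and between mature groups. With limma voom the calls were also 0. The shares of all tested genes called by limma in these comparisons were 16.4, 14.2 and 2.21%. Spen, a corepressor that binds RBPJ, was higher in T-DCs than in N-mDCs (1.09, adjusted p = 0.0312), as was Dtx3l of the Deltex family (0.73, adjusted p = 0.0439). Spen was called under 12 of 22 alternatives and lost without N-mDC sample 1, T-DC sample 2 or 3 or T-mDC sample 2 or 3 (0.0565 to 0.0803), and Dtx3l was called under 6 and kept, of the single samples left out, only without T-DC sample 1. Among further targets, 5 of 15 passed the filter. Ccnd1, which encodes cyclin D1, was at 77.5, 32.8 and 46.8 FPKM in N-mDCs, 8.55, 7.81 and 4.94 in T-DCs and 29.5, 67.4 and 63.3 in T-mDCs. T-DCs expressed less Ccnd1 than N-mDCs (-2.66, adjusted p = 0.00435) and T-mDCs (-2.69, adjusted p = 0.00445), with no overlap. Cdkn1a, which encodes the cell cycle inhibitor p21, was lower than in N-mDCs both in T-DCs (-1.96, adjusted p = 0.00353) and in T-mDCs (-1.63, adjusted p = 0.0263). The Cdkn1a call held under all 22 alternatives in T-DCs and under 14 in T-mDCs, where it was lost without N-mDC sample 2 or 3 or any T-mDC sample (0.0572 to 0.117). Both Ccnd1 calls were lost only with T-DC sample 1 as the only T-DC sample (0.0650 and 0.0606). Nrarp, a target that dampens Notch signalling, was at 0.768, 1.13 and 1.77 FPKM in N-mDCs, 0.995, 3.20 and 2.81 in T-DCs and 0.595, 0.321 and 0.379 in T-mDCs. T-DCs overlapped N-mDCs (0.54, 95% interval -0.15 to 1.22, adjusted p = 0.233) and were above T-mDCs (1.15, adjusted p = 0.0373). The Nrarp call held under 10 of 21 alternatives and was lost without N-mDC sample 2, T-DC sample 2 or 3 or any T-mDC sample (0.0541 to 0.139).

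**Figure D4:**
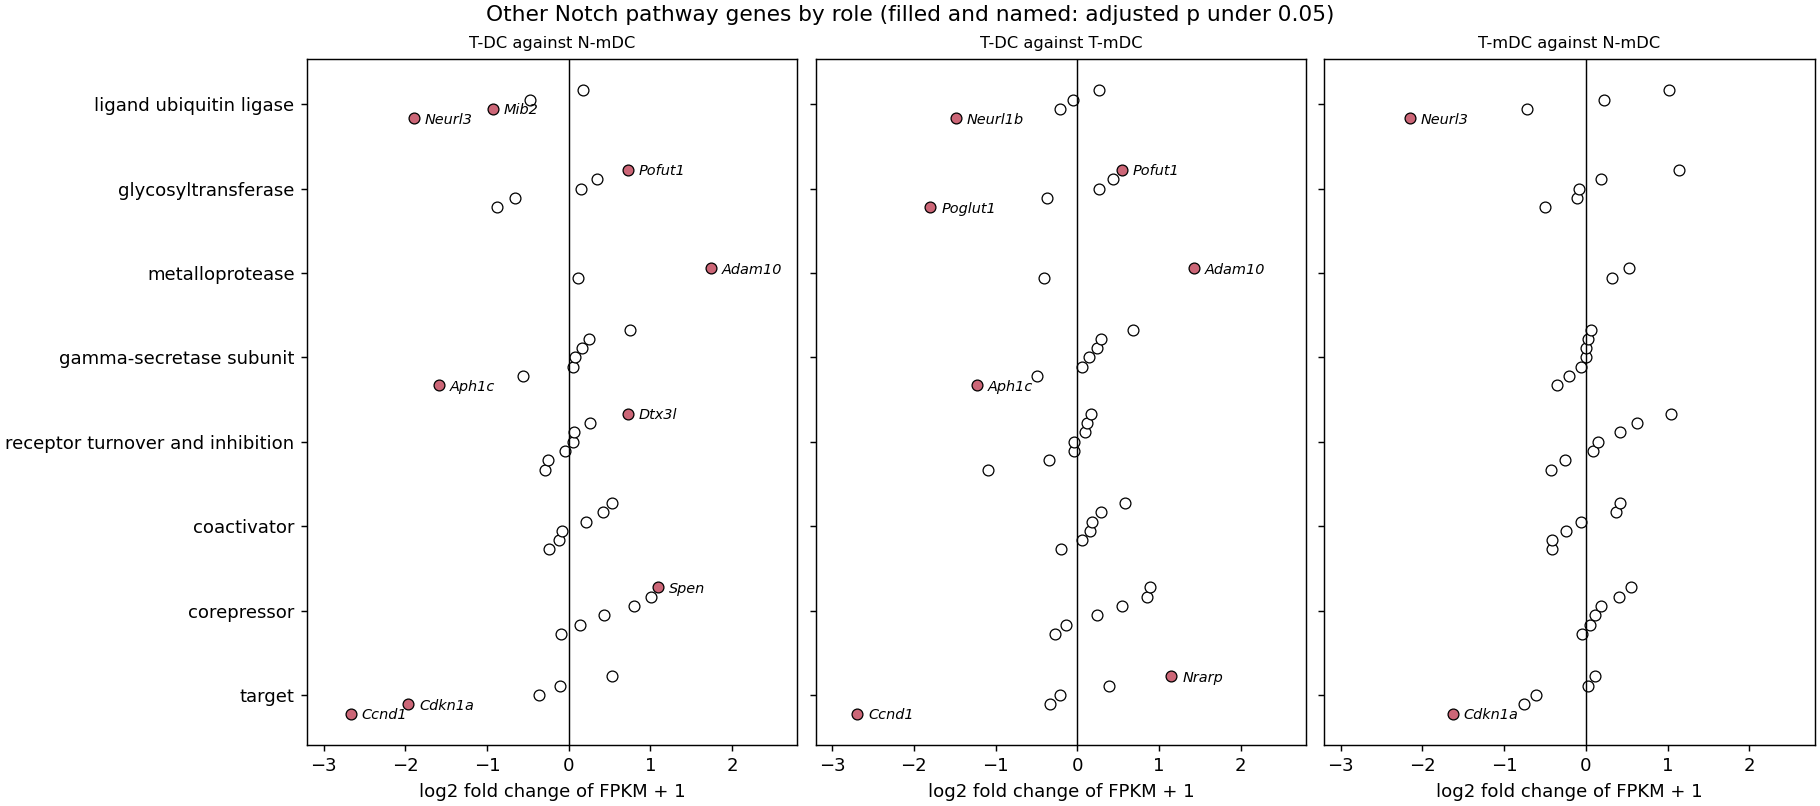
Log2 fold changes of FPKM + 1 (horizontal axes) of the 42 tested Notch pathway genes outside the 10 members, by role (rows), in the 3 comparisons. Filled and named points had an adjusted p under 0.05 (9, 7 and 2 genes), with Adam10 the farthest to the right and Ccnd1 the farthest to the left in both T-DC comparisons.

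Most conventional DC markers were also lower in T-DCs. Of the 12 conventional DC markers, T-DCs were below N-mDCs in 9 and below T-mDCs in 10 by the same test, and above in 0. Beside these, 10.3% and 8.79% of all tested genes were lower. The 12 include the MHCII genes H2-Ab1 and Cd74. Low surface MHCII defined T-DCs, so lower levels of H2-Ab1 and Cd74 were built into the sort and are no separate result. Sirpa overlapped, with 404, 177 and 100 FPKM in T-DC samples 1 to 3, 195 to 244 in N-mDCs and 124 to 230 in T-mDCs. Flt3, a growth factor receptor of conventional DCs, was at 4.48 to 15.4 FPKM in T-DCs against 44.4 to 78.8 in N-mDCs and 62.9 to 89.1 in T-mDCs. Zbtb46, a transcription factor of conventional DCs, was at 1.84 to 3.42 FPKM in T-DCs against at least 10.7 in the mature samples. The 7 neutrophil markers summed to 3429 and 1190 FPKM in T-DC samples 2 and 3, against 7.81 in T-DC sample 1 and at most 621 in the mature samples. The part of these markers and of red cell RNA in the Notch differences was not tested.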

How the data were processed

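RNA-seq libraries of 9 sorted spleen samples were used, with 3 per group, grouped by their titles and treatment labels. The authors deposited FPKM per gene with gene lengths (build mm10 per the labels). The aligner, counter, annotation and strand setting are not given in the sources used here. The product of FPKM and gene length was a whole number of reads for all values after scaling, within 0.01 of a read.

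Genes that reached 1 FPKM in 3 or more samples were tested on log2(FPKM + 1) with limma 3.58.1 in R 4.3.3 (1 fit over all groups, empirical Bayes with a trend, 2-sided, Benjamini-Hochberg adjustment over all tested genes, threshold 0.05). The procedure was tested on simulated data. Values were summarised with Python 3.11.15 and pandas 2.3.3. Depth limits the precision of low genes such as Dll1.

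The members and gene lists were chosen with earlier results of these data known. The text names all members, up to 6 other pathway genes per direction and comparison with the largest called change, the genes most alike each member by Pearson r (up to 3) and marker genes. Notch3 and Mib1 are named as well, although no difference was called for them. The alternatives changed the pseudocount (to 0.1), the filter (none, or 5 FPKM), the scaling (TPM, median-of-ratios or quantile normalization) or the fit (only the groups compared, array weights, no trend, limma voom on recovered reads, a replicate block), averaged T-mDC samples 2 and 3, or left out each sample. T-DC sample 1 as the only T-DC sample was added after the data were seen. Promoters are from RefSeq (GRCm38.p6).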

Additional observations from a re-analysis of the deposited data

How the results depend on the processing

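Over 27 pairs of gene and comparison and up to 22 alternatives, 517 of 585 values kept their direction and side of the threshold, 45 lost the call, 11 gained one and 12 changed sign. The sign changes were those of Notch1 between T-mDCs and N-mDCs without N-mDC sample 3 (0.17), Notch2 between T-DCs and N-mDCs with array weights (-0.0020), Notch2 between T-DCs and T-mDCs with TPM (-0.21), quantile normalization (-0.11), array weights (-0.12), limma voom (-0.039) and without T-DC sample 1 (-0.32), Jag2 between T-mDCs and N-mDCs with T-mDC samples 2 and 3 averaged (-0.076), without N-mDC sample 1 (-0.01), T-mDC sample 2 (-0.03) or T-mDC sample 3 (-0.12), and Hes1 between T-DCs and N-mDCs with T-DC sample 1 alone (0.20). None of these was called. Leaving out 1 sample at a time gave -0.38 to 0.17 for this Notch1 difference, -0.32 to 0.43 for Notch2 between T-DCs and T-mDCs and -0.12 to 0.35 for this Jag2 difference.

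Counts are given in the order T-DCs to N-mDCs, T-DCs to T-mDCs, T-mDCs to N-mDCs, in which 6, 5 and 1 members were called. Leaving out 1 sample gave 4 to 6, 4 to 6 and 0 to 2 (4 to 7 for the F-test), and for the pathway list 4 to 16, 3 to 14 and 0 to 5. Of all tested genes, 7.69 to 39.5%, 4.24 to 35.1% and 0.180 to 8.02% were called in those fits. The fit with T-DC sample 1 alone leaves 1 sample in that group, so its counts are not set beside these. Array weights, whose estimate did not converge, gave 8, 8 and 3 members (8 for the F-test) and 24, 32 and 16 pathway genes, while calling 66.6, 77.9 and 30.1% of all tested genes. Between T-mDCs and N-mDCs, 0 members were called with a pseudocount of 0.1, no filter, the stricter filter, TPM or limma voom. With T-mDC samples 2 and 3 averaged the count was also 0. With only the groups compared it was 2, where 6.67% of all tested genes were called. In that comparison limma as reported gave 2 higher members and 1 lower member at an unadjusted p under 0.05, and voom gave the same numbers. The pathway list gave 5 against N-mDCs with TPM or only the groups compared (13.0 and 8.39% of all tested genes called). Against T-mDCs it gave 4 with no filter, the stricter filter or only the groups compared (4.43, 14.7 and 8.13%). With T-mDC samples 2 and 3 averaged it gave 3 (4.24%). Between T-mDCs and N-mDCs it gave 1 with no filter (0.963%) and 0 with TPM or those samples averaged (0.777 and 0.180%). With only the groups compared it gave 5 (6.67%). Apart from those settings that test fewer samples or genes, the cause was not tested.

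Samples with the same replicate number did not deviate together (correlations from -0.475 to 0.269), so the numbers were not taken to pair samples. With the number as a replicate block, members called were 4, 5 and 0 and pathway genes 7, 3 and 1. Of all tested genes, 10.8, 9.83 and 0.612% were called with that block. TPM moved the median of all tested genes to -0.23 between T-DCs and T-mDCs and to 0.23 between T-mDCs and N-mDCs, and limma voom moved the latter to 0.13. Relative to that shift, Notch2 between T-DCs and T-mDCs was near 0 with TPM. The stricter filter left out Notch1, Jag1 and Jag2. Few reads limit Dll1 and the T-DC values of Dll4 and Jag2.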
